A study of Mus musculus with 7 samples.

Results

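The RNA of 9 enzymes that break down threonine and glycine and carry folate-bound carbon units was followed in mouse pluripotent cells: Tdh, Gcat, Gldc, Amt, Gcsh, Dld, Shmt1, Mthfd1 and Mthfd1l. They were chosen by name, with earlier results of these data known. Every row of the gene count table whose Ensembl identifier maps to one of these symbols was taken. These are 10 of 54838 rows, since 2 identifiers carry the symbol Gcat. The study reprogrammed germinal center (GC) B cells, the dividing B cells of an immune response, into induced pluripotent stem cells (iPSC) and set them beside embryonic stem cells. The B cells were B220+ CD38- Fas+ cells sorted from spleens of male mice 9 days after immunization with SRBC.

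The M-iPSC group held 3 colonies, read here as the colonies from GC B cells sorted for an endogenous Myc-GFP reporter, which marks cells activated by T follicular helper cells; their titles carry only the letter M. The GC-iPSC group held 3 colonies from bulk GC B cells. Both kinds of B cell spent 6 days on mouse embryonic fibroblasts with cytokines. Doxycycline (Dox) then drove reprogramming for 10 days, and colonies were kept for another 4 days without Dox. Each picked colony is 1 clone, passaged once on gelatin and pre-plated for 45 min against carried-over fibroblasts. The third group was 1 library of V6.5 mouse embryonic stem cells, which has no spread of its own. All 7 libraries came from cells whose growth protocol lists KO-DMEM with FBS and LIF, a cytokine that holds mouse stem cells undifferentiated. The mouse behind each colony is not stated, so p-values measure the spread between colonies, and B cell source and donor mouse cannot be told apart.

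Mouse embryonic stem cells are known for taking much of their glycine and acetyl-CoA from threonine. In their mitochondria Tdh oxidises threonine and Gcat splits the product into glycine and acetyl-CoA. The glycine cleavage system then decarboxylates glycine and passes its remaining carbon to tetrahydrofolate, through the P protein (Gldc), the T protein (Amt), the lipoyl-carrying H protein (Gcsh) and the L protein (Dld). Mthfd1l releases that carbon as formate, and Mthfd1 in the cytosol takes formate up again for purine and thymidylate synthesis. Shmt1 moves a carbon between serine and tetrahydrofolate in the cytosol.

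Library totals ran between 31139508 and 35728921 counts. Levels are CPM, a gene's share of its library's counts, scaled by edgeR's trimmed mean of M values (TMM), which equalises the bulk of genes between libraries. Summed counts of the Y-linked genes Ddx3y, Eif2s3y, Kdm5d and Uty were 4292, 0 and 0 in M-iPSC colonies 1, 2 and 3. They were 4699, 3732 and 4293 in GC-iPSC colonies 1, 2 and 3, and 740 in V6.5. M-iPSC colonies 2 and 3 thus held no counts of these genes, although the donors are stated to be male. The reason was not tested. For the followed enzymes and the named pathway genes, calls are given below with and without these colonies wherever the calls change. Phgdh, Psat1, Psph, Slc1a4 and Slc25a32 are exceptions, with no value given without these colonies. The same holds for all marker genes of pluripotency and of other cell types. Whether the marker calls change without these colonies was not tested. Of 15 pluripotency genes every one was detected in every library, with a summed level of 7052 to 7607 CPM in M-iPSC, 7121 to 7512 CPM in GC-iPSC and 10032 CPM in V6.5. The B cell marker Blk was at 0 in all 7 libraries, and the summed level of 12 B cell genes was 15.8 to 18.4 CPM in M-iPSC, 17.6 to 19.2 CPM in GC-iPSC and 18.6 CPM in V6.5.

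The largest differences among the 9 genes were between the colonies and V6.5, and they lay in the glycine cleavage system: Gldc rose and Amt fell in the colonies. Tdh and Mthfd1l fell by less, and Gcat, Gcsh, Dld, Shmt1 and Mthfd1 did not pass the test. Between M-iPSC and GC-iPSC colonies only Amt passed it, being lower in M-iPSC. A change counts as called where the p-value of edgeR's quasi-likelihood test, adjusted over all tested genes by the Benjamini-Hochberg method, was under 0.05. Log2 changes are given with their standard error (SE). The fold of colonies over V6.5 uses the mean of the 2 colony groups, and its spread comes from the colonies, since V6.5 is a single library. No Dox or cytokine days are given for V6.5. Cell line, reprogramming and culture history therefore cannot be told apart in the comparisons with V6.5. In bulk RNA, fewer cells of a type and less RNA per cell cannot be told apart.

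**Figure D1:**
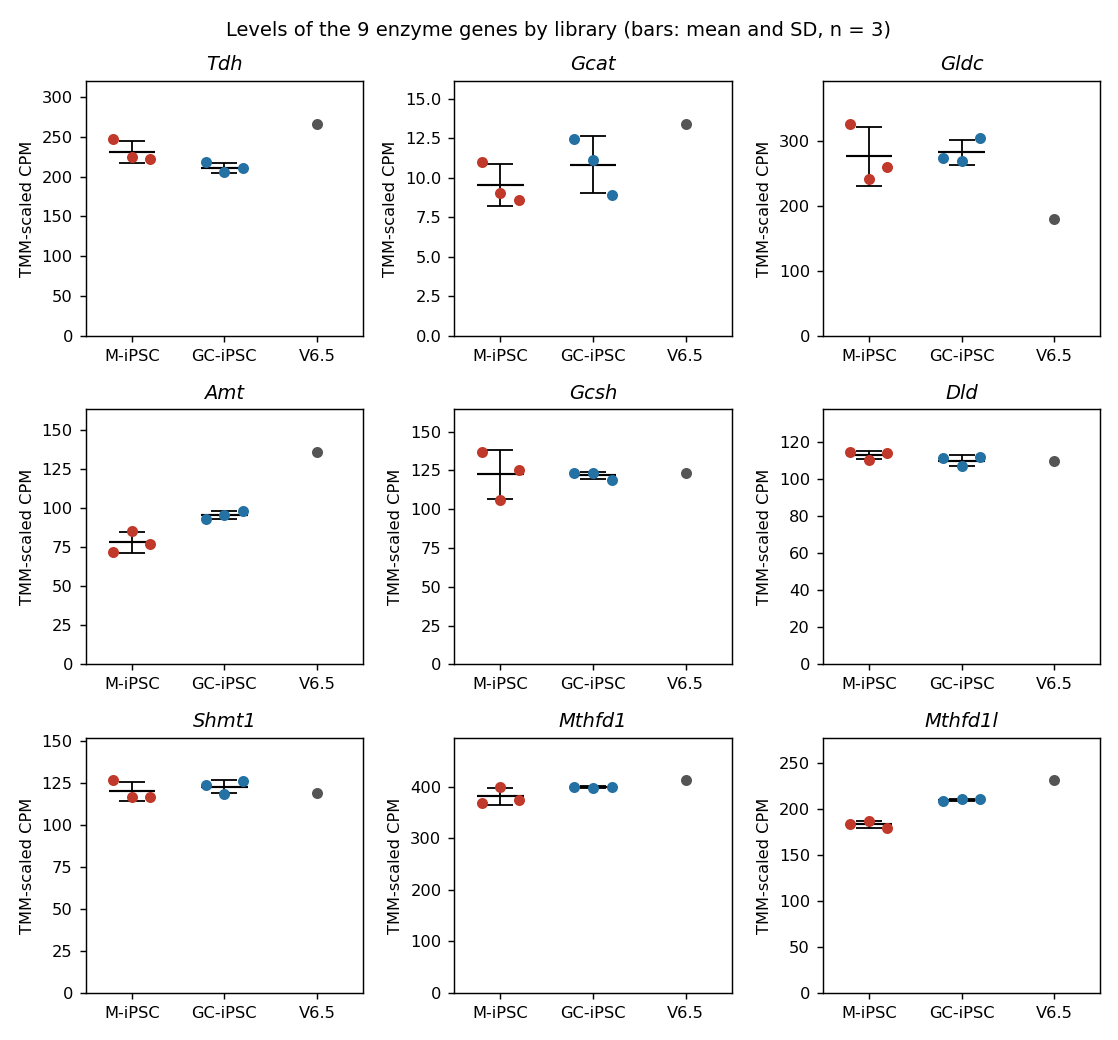
TMM-scaled CPM of each of the 9 genes by library (y axis, from 0) in M-iPSC, GC-iPSC and V6.5 (x axis). Points are libraries, and bars give the mean and SD of 3 colonies. Every colony lies above V6.5 for Gldc, at 242 CPM or more against 180 CPM, and below it for Amt, at 98.0 CPM or less against 136 CPM.

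Tdh, the first enzyme of threonine breakdown (chr14:63492347-63509092, minus strand, GRCm38), had 247, 224 and 222 CPM in M-iPSC colonies 1, 2 and 3, and 218, 205 and 210 CPM in GC-iPSC colonies 1, 2 and 3, against 266 CPM in V6.5. The M-iPSC colonies all lay above the GC-iPSC colonies, and V6.5 lay above all 6. The colonies averaged 221 ± 14.5 CPM (SD, n = 6) against 266 CPM in V6.5, and Tdh fell by 0.27 on the log2 scale (SE 0.08, edgeR adjusted p = 0.0364). This call was lost without GC-iPSC colony 2 (edgeR adjusted p = 0.0901), M-iPSC colony 2 (0.0629) or M-iPSC colony 3 (0.0725), and without M-iPSC colonies 2 and 3 together (0.121). Set against V6.5 by source, the log2 change was -0.21 ± 0.09 (SE) in M-iPSC, which did not pass (edgeR adjusted p = 0.136). In GC-iPSC it was -0.34 ± 0.09, which passed (edgeR adjusted p = 0.0214) but not without GC-iPSC colony 2 (0.0857). M-iPSC averaged 231 ± 13.9 CPM and GC-iPSC 211 ± 6.24 CPM (SD, n = 3 each). That difference, 0.13 ± 0.06 on the log2 scale, did not pass (edgeR adjusted p = 0.338).

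Gcat, which takes over the product of Tdh (chr15:79030874-79038353, plus strand), was the lowest of the 9. It had 11.0, 9.01 and 8.59 CPM in M-iPSC colonies 1, 2 and 3, and 12.5, 11.1 and 8.94 CPM in GC-iPSC colonies 1, 2 and 3, against 13.4 CPM in V6.5. The 2 colony groups overlapped, and V6.5 was above every colony. The colonies averaged 10.2 ± 1.56 CPM (SD, n = 6), and the log2 change against V6.5, -0.40 ± 0.20 (SE), did not pass (edgeR adjusted p = 0.2). The log2 change of M-iPSC over GC-iPSC was -0.19 ± 0.16 (edgeR adjusted p = 0.621). Gcat rested on 271 to 449 counts a library, the fewest of the members. The second row with the symbol Gcat overlaps it on the same strand over 1132 of its 2384 exon bases and held 0 counts in all 7 libraries. The labels do not say how reads in such shared bases were counted, so the level of Gcat is uncertain by that share.

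Gldc, the decarboxylase that opens glycine cleavage (chr19:30098447-30175429, minus strand), had 326, 242 and 259 CPM in M-iPSC colonies 1, 2 and 3. It had 273, 269 and 304 CPM in GC-iPSC colonies 1, 2 and 3, and 180 CPM in V6.5. Every colony exceeded V6.5, and the M-iPSC colonies spanned the whole GC-iPSC range. The colonies averaged 279 ± 30.9 CPM (SD, n = 6) against 180 CPM in V6.5, a 1.55-fold rise (log2 change 0.64 ± 0.13, SE, edgeR adjusted p = 0.00522). By source, the log2 change against V6.5 was 0.62 ± 0.14 in M-iPSC (edgeR adjusted p = 0.00847) and 0.65 ± 0.14 in GC-iPSC (0.00729), 2 comparisons that share the V6.5 library. M-iPSC averaged 276 ± 44.7 CPM and GC-iPSC 282 ± 19.1 CPM (SD, n = 3 each), with a log2 change of -0.04 ± 0.10 (edgeR adjusted p = 0.906).

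Amt, the aminomethyltransferase that hands the glycine carbon to tetrahydrofolate (chr9:108296853-108302302, plus strand), ran the other way. It had 72.2, 85.3 and 76.8 CPM in M-iPSC colonies 1, 2 and 3, and 93.0, 95.9 and 98.0 CPM in GC-iPSC colonies 1, 2 and 3, against 136 CPM in V6.5. The 3 groups did not overlap: every M-iPSC colony was below every GC-iPSC colony, and both were below V6.5. The colonies averaged 86.9 ± 10.6 CPM (SD, n = 6), 0.636-fold of V6.5 (log2 change -0.65 ± 0.09, SE, edgeR adjusted p = 0.00031). By source, the log2 change against V6.5 was -0.80 ± 0.10 in M-iPSC (edgeR adjusted p = 0.000124) and -0.51 ± 0.10 in GC-iPSC (0.00434). Amt and Gldc passed in all 12 alternatives run for each of these 3 comparisons with V6.5, all with the same V6.5 library.

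Between the sources, Amt averaged 78.1 ± 6.68 CPM in M-iPSC and 95.6 ± 2.52 CPM in GC-iPSC (SD, n = 3 each). It fell by 0.29 on the log2 scale in M-iPSC (SE 0.07, edgeR adjusted p = 0.0431). The call sat close to the threshold: it was lost without M-iPSC colony 1 (edgeR adjusted p = 0.122) or 3 (0.202), and without GC-iPSC colony 1 (0.0868), 2 (0.219) or 3 (0.074). Without M-iPSC colonies 2 and 3 the log2 change was -0.41 and did not pass (edgeR adjusted p = 0.0758). Markers of other cell types moved between these groups. The summed level of 13 primitive endoderm genes was 3494 to 5745 CPM in M-iPSC and 3046 to 3714 CPM in GC-iPSC, and 3 of the 13 rose. The sum over 10 trophoblast genes was 695 to 806 CPM in M-iPSC and 466 to 518 CPM in GC-iPSC. The 3 of 9 tested genes that rose in M-iPSC were the keratin genes Krt7, Krt8 and Krt18. Cdx2, Gata3, Hand1, Ascl2, Plac1 and Tfap2c did not pass, and Tfap2c was lower in M-iPSC (log2 change -0.27). The defining gene Elf5 was at 0 in some colonies. The sum over 10 2-cell-like genes was 225 to 329 CPM in M-iPSC and 475 to 521 CPM in GC-iPSC, and all 10 fell in M-iPSC. Whether other cell types had a part in the Amt difference was not tested.

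Gcsh, the H protein that carries the intermediate between the other subunits, had 137, 106 and 125 CPM in M-iPSC colonies 1, 2 and 3. It had 123, 123 and 119 CPM in GC-iPSC colonies 1, 2 and 3, and 123 CPM in V6.5. V6.5 lay inside the colony range, and the log2 change of the colonies against it was -0.01 ± 0.11 (SE, edgeR adjusted p = 0.961). M-iPSC colony 1 was the highest of the 7 libraries and M-iPSC colony 2 the lowest. Dld, the L protein, is shared with the pyruvate, oxoglutarate and branched-chain ketoacid dehydrogenase complexes. It had 115, 110 and 114 CPM in M-iPSC colonies 1, 2 and 3, and 111, 107 and 112 CPM in GC-iPSC colonies 1, 2 and 3, against 110 CPM in V6.5. All 7 values fell between 107 and 115 CPM, and the log2 change against V6.5 was 0.02 ± 0.08 (edgeR adjusted p = 0.9). Between the sources the log2 change was 0.006 ± 0.08 for Gcsh (edgeR adjusted p = 0.985) and 0.04 ± 0.06 for Dld (0.838). The RNA of the 4 cleavage system genes was therefore not called in a single direction. In the colonies against V6.5, 1 gene rose, 1 fell and 2 did not pass. Protein was not measured.

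Of the folate enzymes, Mthfd1l, the mitochondrial formyltetrahydrofolate synthetase (chr10:3973118-4167081, plus strand), was ordered by group. It had 183, 187 and 179 CPM in M-iPSC colonies 1, 2 and 3, and 208, 210.1 and 210.3 CPM in GC-iPSC colonies 1, 2 and 3, against 231 CPM in V6.5. The M-iPSC colonies lay wholly below the GC-iPSC colonies, which lay below V6.5, the same order of groups as Amt. The colonies averaged 196 ± 14.6 CPM (SD, n = 6), and Mthfd1l fell by 0.24 on the log2 scale against V6.5 (SE 0.07, edgeR adjusted p = 0.043). That call was lost with no filter on low counts (edgeR adjusted p = 0.064) and without M-iPSC colony 2 (0.0574) or 3 (0.0821), both of these (0.0945), or GC-iPSC colony 1 (0.0643) or 2 (0.102). Against V6.5 by source, the log2 change was -0.33 ± 0.08 in M-iPSC, which passed (edgeR adjusted p = 0.0107), though not without M-iPSC colonies 2 and 3 (0.0703). In GC-iPSC it was -0.14 ± 0.08 (edgeR adjusted p = 0.291). M-iPSC averaged 183 ± 3.93 CPM and GC-iPSC 209 ± 1.32 CPM (SD, n = 3 each). The log2 change between the sources, -0.20 ± 0.06, missed the threshold (edgeR adjusted p = 0.0749), while DESeq2 called it (adjusted p = 0.0397).

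Mthfd1, the multifunctional cytosolic folate enzyme (chr12:76255298-76319803, plus strand), had the most counts of the 9. Its levels were 369, 399 and 375 CPM in M-iPSC colonies 1, 2 and 3, and 399.7, 396.7 and 400.5 CPM in GC-iPSC colonies 1, 2 and 3, against 412 CPM in V6.5. V6.5 was highest, and M-iPSC colony 2 lay among the GC-iPSC colonies. The log2 change was -0.08 ± 0.07 (SE) in the colonies against V6.5 (edgeR adjusted p = 0.515) and -0.07 ± 0.05 in M-iPSC against GC-iPSC (0.604). Shmt1 had 126, 116.7 and 116.7 CPM in M-iPSC colonies 1, 2 and 3, and 124, 118 and 126 CPM in GC-iPSC colonies 1, 2 and 3, against 119 CPM in V6.5. V6.5 lay inside the range of the colonies. The log2 change of Shmt1 was 0.03 ± 0.09 in the colonies against V6.5 (edgeR adjusted p = 0.861) and -0.04 ± 0.06 between the sources (0.841).

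Since the 9 genes were chosen with earlier results of these data known, the shares over all genes given here describe them and test nothing. Counted over the 9 genes, 1 fell and none rose in M-iPSC against GC-iPSC. There 3.97% of 18166 tested genes were called, 1.70% rising and 2.27% falling. The groups did not overlap for 3 of the 9 (Tdh, Amt and Mthfd1l), against 22.1% of all tested genes. The median log2 change of the 9 was -0.04, and that of all tested genes 0.003. In the colonies against V6.5, 1 of the 9 rose and 3 fell. There 16.3% of 20502 tested genes were called, 8.76% rising and 7.56% falling. V6.5 lay outside the colony range for 6 of the 9 genes and for 51.4% of all tested genes. The median log2 change was -0.08 over the 9 and 0.02 over all tested genes. M-iPSC against V6.5 gave 3 of 9 called (Gldc rising, Amt and Mthfd1l falling), beside 16.2% of all tested genes, 8.84% rising and 7.37% falling. V6.5 lay outside the M-iPSC range for 7 of the 9, beside 69.6% of all tested genes. GC-iPSC against V6.5 gave 3 of 9 (Gldc rising, Tdh and Amt falling), beside 13.0%, 7.53% rising and 5.51% falling. V6.5 lay outside the GC-iPSC range for 6 of the 9, beside 68.1%. Without M-iPSC colonies 2 and 3 the count in the colonies against V6.5 was 2 of 9, and in M-iPSC against GC-iPSC 0 of 9.

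**Figure D2:**
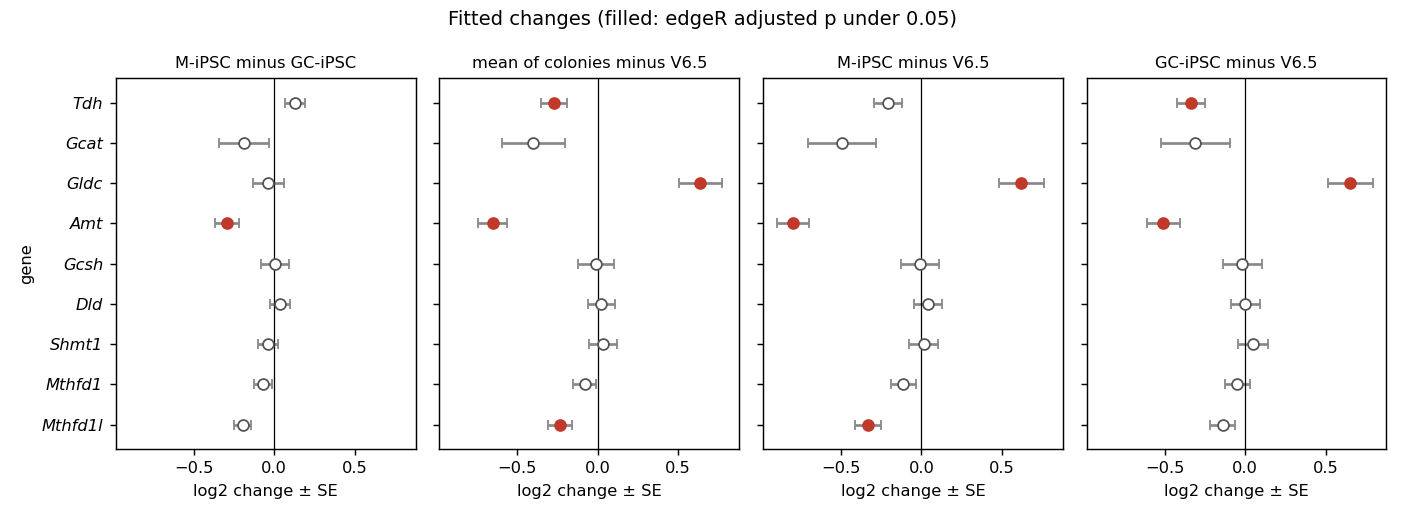
Fitted log2 change with its SE (x axis) for each of the 9 genes (y axis) in 4 comparisons, with filled points for edgeR adjusted p under 0.05. Amt is filled in all 4 and Gldc in the 3 with V6.5, which share that library.

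Marker genes of other cell types also separated the colonies from V6.5. All 13 primitive endoderm genes rose in the colonies, to a summed 3046 to 5745 CPM against 785 CPM in V6.5. All 10 2-cell-like genes rose too in the mean of the 2 colony groups, to a summed 225 to 521 CPM against 78.0 CPM. For Tdpoz4 the rise lay in GC-iPSC only. It had 3.73 to 4.61 CPM there and 0.412 to 0.539 CPM in M-iPSC, against 0.536 CPM in V6.5. Of 9 tested trophoblast genes 5 rose and 1 fell, with a sum over 10 genes of 466 to 806 CPM against 188 CPM. The genes that rose were Krt7, Krt8, Krt18, Hand1 and Plac1, and Tfap2c fell. Cdx2, Gata3 and Ascl2 did not pass, and Elf5 was not tested. Krt8 (211 to 399 CPM) and Krt18 (147 to 304 CPM) had the highest levels of this list in the colonies. Of 14 tested fibroblast genes 8 rose and 1 fell, with a sum over 15 genes of 1108 to 1394 CPM against 692 CPM. Of the 15 pluripotency genes 10 fell and 1 rose. Whether other cell types had a part in the changes of Gldc, Amt, Tdh and Mthfd1l was not tested.

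Gldc, Amt and Mthfd1l, the called genes that have a RefSeq promoter entry, are shown with the 250 bases before their annotated start, since they moved in opposite directions in the same colonies. RefSeq (GRCm38.p6) gave an entry for 8 of the 9 genes, Tdh being the one without. For Mthfd1l the bases checked after the RefSeq start were not found in a GENCODE transcript. GENCODE begins that gene further downstream, at base 3973118, so its positions rest on the RefSeq start. The sequences run 5′ to 3′ on the gene's strand, and capitals mark every match on either strand to a CCAAT box (CCAAT) or a GC box (GGGCGG), generic promoter elements.
Gldc chr19:30175442-30175691 (minus strand): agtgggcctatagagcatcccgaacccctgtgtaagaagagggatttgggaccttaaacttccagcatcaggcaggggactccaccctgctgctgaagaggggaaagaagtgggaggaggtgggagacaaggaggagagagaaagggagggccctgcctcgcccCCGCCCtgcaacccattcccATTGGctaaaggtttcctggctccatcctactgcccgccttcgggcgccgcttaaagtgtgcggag
Amt chr9:108296655-108296904 (plus strand): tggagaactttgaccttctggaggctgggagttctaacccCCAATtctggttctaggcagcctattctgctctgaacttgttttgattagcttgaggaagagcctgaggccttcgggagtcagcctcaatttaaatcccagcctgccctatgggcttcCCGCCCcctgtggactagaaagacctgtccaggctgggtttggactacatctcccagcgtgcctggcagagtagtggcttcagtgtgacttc
Mthfd1l chr10:3972825-3973074 (plus strand): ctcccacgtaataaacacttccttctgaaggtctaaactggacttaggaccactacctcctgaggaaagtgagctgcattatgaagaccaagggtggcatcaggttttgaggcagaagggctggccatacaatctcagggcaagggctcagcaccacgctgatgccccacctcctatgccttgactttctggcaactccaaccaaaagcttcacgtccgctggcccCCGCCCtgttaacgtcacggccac
Gldc held a CCAAT box on the reverse strand from base -66 to -62 and Amt one on the forward strand from -210 to -206, counted from the start. Each of the 3 held 1 GC box, on the reverse strand, from -86 to -81 in Gldc, -92 to -87 in Amt and -24 to -19 in Mthfd1l. In 32851 windows of 300 bases, 250 before to 50 after a start, 37.4% held CCAAT and 35.7% held GGGCGG, so both are common. An octamer (ATTTGCAT, in 1.74% of windows), the form bound by Pou5f1 and its relatives, matched none of the 8 genes. Neither did a core of the amino acid response element (TGATGCAA, in 0.895%). An E-box (CACGTG, in 7.15%), the element bound by Myc, matched only Gcat, from 2 to 7 bases after its start. None of these motifs shares letters with another in the 3 sequences shown. A match is a description of letters and not of binding.

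Levels were compared between genes per kilobase (kb) of exon that no other gene shares. Over the 6 colonies, Mthfd1 (median 90.4, range 83.9 to 90.9 CPM per kb) and Tdh (86.3, 80.6 to 96.9) were highest and overlapped, as did Tdh and Gcsh (78.0, 66.9 to 86.7). Gldc (44.6, 39.7 to 53.6 CPM per kb) and Mthfd1l (44.5, 40.4 to 47.4) followed and overlapped. Amt (36.6, 29.6 to 40.2 CPM per kb) and Shmt1 (32.7, 31.5 to 34.2) also overlapped, and Dld (30.3, 29.0 to 31.1) lay below Shmt1. Gcat (8.01, 6.86 to 9.95) was lowest. Over all its exon bases, shared ones included, Gcat had 3.60 to 5.23 CPM per kb in the colonies and 5.64 in V6.5. In V6.5 the order was Tdh at 105, Mthfd1 at 93.6, Gcsh at 78.0, Amt at 55.8, Mthfd1l at 52.0, Shmt1 at 32.1, Dld at 29.8, Gldc at 29.5 and Gcat at 10.7 CPM per kb. The order of Gldc and Amt per kb was thus reversed: Gldc lay below Amt in V6.5, and in every colony it lay above Amt and Dld. In V6.5 Gldc was the lowest of the 4 glycine cleavage genes per kb, but close to Dld. The reversal rests on exon length, 6091 bases for Gldc and 2437 for Amt. In CPM, Gldc lay above Amt in every library, V6.5 included (180 against 136 CPM).

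**Figure D3:**
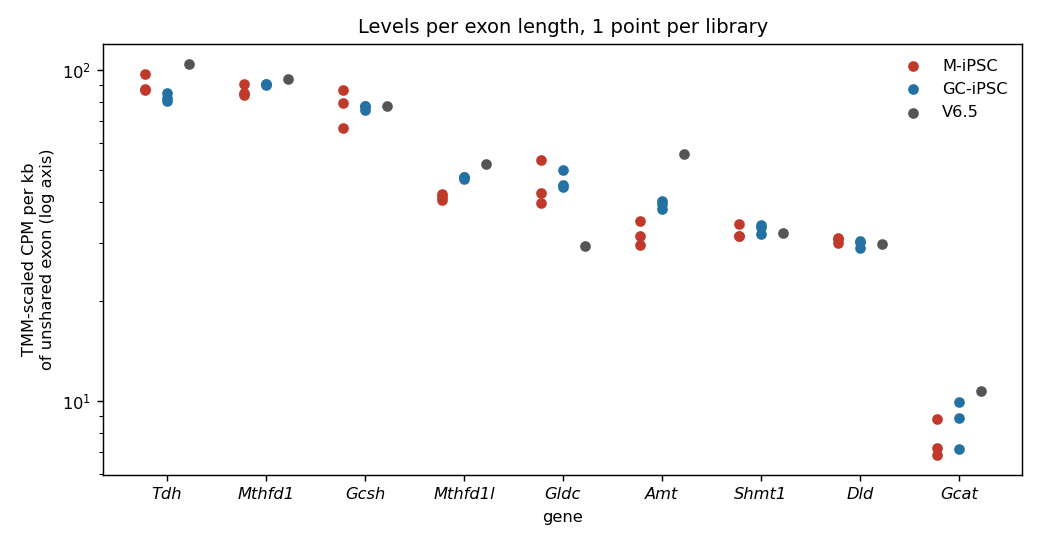
TMM-scaled CPM per kb of unshared exon (y axis, log scale) for the 9 genes (x axis), 1 point per library. Gldc lies above Amt in every colony and below it in V6.5, and Gcat lies below 11 CPM per kb in all 7 libraries.

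The ratio of Gldc to Amt, per kb, put this reversal in 1 number. It was 1.81, 1.13 and 1.35 in M-iPSC colonies 1, 2 and 3, and 1.18, 1.12 and 1.24 in GC-iPSC colonies 1, 2 and 3, against 0.529 in V6.5. The colony groups overlapped, and V6.5 lay below every colony. Gldc over Gcsh was 0.537 to 0.618 in M-iPSC and 0.568 to 0.662 in GC-iPSC, against 0.378 in V6.5. Tdh over Gcat, the successive steps of threonine breakdown, was 11.0 to 12.7 in M-iPSC, 8.59 to 11.6 in GC-iPSC and 9.74 in V6.5, with overlapping colony groups. The size of this ratio rests on the unshared exon bases of Gcat, and over all its exon bases it would be higher in every library. Mthfd1 over Mthfd1l, the cytosolic over the mitochondrial synthetase, was 2.03 to 2.15 in M-iPSC, 1.90 to 1.94 in GC-iPSC and 1.80 in V6.5, with no overlap between the groups. The ratio of Shmt2, the mitochondrial counterpart of Shmt1, to Shmt1 was 2.64 to 3.04 in M-iPSC, 2.65 to 3.19 in GC-iPSC and 4.53 in V6.5.

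The 9 genes differed in how far colonies of a group spread. Among 9731 genes of at least 10 CPM on average, the median within-group SD of log2 CPM was 0.101. Mthfd1l (0.023), Dld (0.033) and Mthfd1 (0.043) were among the steadiest, since 0.74%, 2.93% and 6.57% of those genes had a smaller SD. Shmt1 (0.058), Tdh (0.067) and Amt (0.090) were also under the median. Gcsh (0.135), Gldc (0.174) and Gcat (0.209) were above it, and 72.2%, 86.8% and 93.4% of genes had a smaller SD. The SD of Gcat includes more counting error than the others, from its lower counts.

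The genes whose log2 CPM tracked Tdh most closely over the 7 libraries, out of 9730, were Usp38 (Pearson r = 0.987), Smim7 (0.979), Plk3 (0.976), Def8 (0.976) and Acot13 (0.974). Over the 6 colonies they were Pja1 (0.985), Usp38 (0.980), Vps18 (0.978), Bex4 (0.977) and E130309D02Rik (0.976). For Gldc they were Kif5c (0.988), Gpatch4 (0.988), Pnpla6 (0.987), Arhgef3 (0.982) and Mtmr10 (0.980) over 7 libraries. Over the 6 colonies they were Kif5c (0.993), Fam198b (0.986), Tbc1d9 (0.985), Cav1 (0.983) and Pbxip1 (0.981). Usp38 and Kif5c stood in both lists of their gene. These are the highest of 9730 values over few points that share their library and their groups, and they describe likeness only.

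The pathway lists that follow were also chosen with earlier results of these data known. Of 15 tested genes of serine and glycine synthesis, use and transport (18 listed), 2 rose, 6 fell and 7 did not pass in the colonies against V6.5. There 16.3% of all tested genes were called, 8.76% rising and 7.56% falling. The median log2 change of the 15 was -0.27 beside 0.02 over all tested genes. Shmt2, the main mitochondrial source of carbon units from serine, had 276 to 294.6 CPM in M-iPSC and 278 to 314 CPM in GC-iPSC, against 447 CPM in V6.5 (log2 change -0.62 ± 0.08, SE, edgeR adjusted p = 0.000139). All 3 enzymes of serine synthesis fell: Phgdh to 217 to 250.2 CPM against 284 CPM in V6.5 (log2 change -0.27), Psat1 to 436 to 533 CPM against 669 CPM (-0.45) and Psph to 64.1 to 71.4 CPM against 86.9 CPM (-0.36). The neutral amino acid exchanger Slc7a5 had 357 to 374 CPM in M-iPSC and 295 to 329.6 CPM in GC-iPSC, against 518 CPM in V6.5 (log2 change -0.60 ± 0.08, edgeR adjusted p = 0.000136). Slc38a2, a sodium-coupled neutral amino acid transporter, rose to 329 to 419.7 CPM against 253 CPM in V6.5 (log2 change 0.55 ± 0.09, edgeR adjusted p = 0.000862). Slc1a4, a transporter of serine and threonine among others, also rose (log2 change 0.39 ± 0.12, edgeR adjusted p = 0.0441). In M-iPSC against V6.5 neither Phgdh (edgeR adjusted p = 0.0923) nor Slc1a4 (0.125) passed. Phgdh, Psat1, Psph and Slc1a4 were named after their values were seen, and were not followed singly in the alternatives.

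Slc1a5, the exchanger of glutamine and other neutral amino acids, was the clearest difference between the sources in these lists. It had 182, 201 and 191 CPM in M-iPSC colonies 1, 2 and 3, and 119, 131 and 117 CPM in GC-iPSC colonies 1, 2 and 3, against 244 CPM in V6.5. The 3 groups did not overlap. Slc1a5 rose by 0.64 ± 0.07 (SE) on the log2 scale in M-iPSC over GC-iPSC (edgeR adjusted p = 0.00024) and passed in every alternative run, also without M-iPSC colonies 2 and 3 (0.0145). The colonies together lay 0.67 ± 0.08 below V6.5 on the log2 scale (edgeR adjusted p = 0.000135). It was the only called gene of the 15 in M-iPSC against GC-iPSC, where 3.97% of all tested genes were called.

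Of 18 tested folate genes, 3 rose and 2 fell in the colonies against V6.5, beside 16.3% of all tested genes called there. None was called between the sources, where 2 had an unadjusted p under 0.05 in edgeR and DESeq2 called 1. The median log2 change was -0.01 in the colonies against V6.5. Folr1, a folate receptor, had 46.7 to 66.0 CPM in the colonies against 30.4 CPM in V6.5 (log2 change 0.85 ± 0.14, SE, edgeR adjusted p = 0.000965), and passed in all 12 alternatives. Slc25a32, the mitochondrial folate carrier, rose by 0.48 on the log2 scale (edgeR adjusted p = 0.0437) and was named after its values were seen. In M-iPSC against V6.5 it did not pass (edgeR adjusted p = 0.088). The other 3 were low. Mthfd2l, a mitochondrial methylenetetrahydrofolate dehydrogenase, had 2.54 to 3.33 CPM in the colonies against 1.34 CPM in V6.5 (log2 change 1.12 ± 0.32, edgeR adjusted p = 0.0294), lost without GC-iPSC colony 2 (0.0569) and with limma-voom (0.0801). Mthfs, which recovers formyltetrahydrofolate, had 2.04 to 2.68 CPM against 4.36 CPM (log2 change -0.84 ± 0.26, edgeR adjusted p = 0.0426), lost without M-iPSC colony 1 (0.0506) or 2 (0.0673) and GC-iPSC colony 1 (0.0689) or 2 (0.0739). The Mthfs call was also lost without M-iPSC colonies 2 and 3 together (edgeR adjusted p = 0.0668), with no filter on low counts (0.0728) and with DESeq2 (0.0753), and it passed in 5 of 12 alternatives. Aldh1l2, the mitochondrial formyltetrahydrofolate dehydrogenase, had 3.11 to 5.93 CPM against 7.71 CPM (log2 change -0.78 ± 0.24, edgeR adjusted p = 0.0393), lost without M-iPSC colony 2 (0.0508) or 3 (0.057), both of these (0.0839), and GC-iPSC colony 1 (0.0658) or 2 (0.0767).

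Of 15 methionine cycle genes, 2 rose, 1 fell and 12 did not pass in the colonies against V6.5, a count near the 16.3% called over all tested genes. Their median log2 change was 0.02. Mat2a, which makes S-adenosylmethionine (SAM), had 188 to 216 CPM in the colonies against 153 CPM in V6.5 (log2 change 0.41 ± 0.09, SE, edgeR adjusted p = 0.00929). Mtap, which salvages methionine, had 94.9 to 100.5 CPM against 75.5 CPM (log2 change 0.38 ± 0.09, edgeR adjusted p = 0.00889). Cth, which cleaves cystathionine, had 89.1 to 112 CPM against 122 CPM (log2 change -0.31 ± 0.10, edgeR adjusted p = 0.0444), lost without M-iPSC colony 1 (0.0603) or 3 (0.0835) and GC-iPSC colony 1 (0.0624) or 2 (0.0631), and with a mean of at least 1 CPM as the filter (0.0524). Cth did not pass in M-iPSC against V6.5 (edgeR adjusted p = 0.126). Between the sources, 1 of 13 tested was called, beside 3.97% of all tested genes. Mtrr, which reactivates methionine synthase, had 58.5, 56.7 and 57.1 CPM in M-iPSC colonies 1, 2 and 3, and 67.1, 70.3 and 74.7 CPM in GC-iPSC colonies 1, 2 and 3, against 57.0 CPM in V6.5. The M-iPSC colonies lay wholly below the GC-iPSC colonies (log2 change -0.30 ± 0.07, edgeR adjusted p = 0.0285). The call was lost without M-iPSC colony 1 (edgeR adjusted p = 0.0512), 2 (0.0794) or 3 (0.136), GC-iPSC colony 2 (0.168) or 3 (0.057), and both M-iPSC colonies 2 and 3 (0.339).

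Of 14 genes for lipoate synthesis and the other complexes that use Dld, 1 rose, 2 fell and 11 did not pass in the colonies against V6.5, a count near the 16.3% called over all tested genes. Their median log2 change was 0.007. Dbt, the core of the branched-chain ketoacid dehydrogenase, had 46.8 to 58.2 CPM in the colonies against 39.8 CPM in V6.5 (log2 change 0.38 ± 0.11, SE, edgeR adjusted p = 0.0373), lost without M-iPSC colony 2 (0.0557) or 3 (0.0666), both of these (0.102), or GC-iPSC colony 2 (0.0687), and with limma-voom (0.0537). Bckdhb, a subunit of the same complex, had 42.9 to 54.1 CPM against 60.9 CPM (log2 change -0.36 ± 0.11, edgeR adjusted p = 0.0307), lost without M-iPSC colony 3 (0.0573), M-iPSC colonies 2 and 3 (0.0605) or GC-iPSC colony 2 (0.0526). Dhtkd1, of the oxoadipate dehydrogenase, had 34.0 to 45.9 CPM against 49.8 CPM (log2 change -0.44 ± 0.13, edgeR adjusted p = 0.0374), lost without M-iPSC colony 3 (0.069) or GC-iPSC colony 1 (0.0557) or 2 (0.0682). Dhtkd1 did not pass in M-iPSC against V6.5 (edgeR adjusted p = 0.115). Between the sources edgeR and DESeq2 called none of the 14, and in edgeR 1 had an unadjusted p under 0.05.

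**Figure D4:**
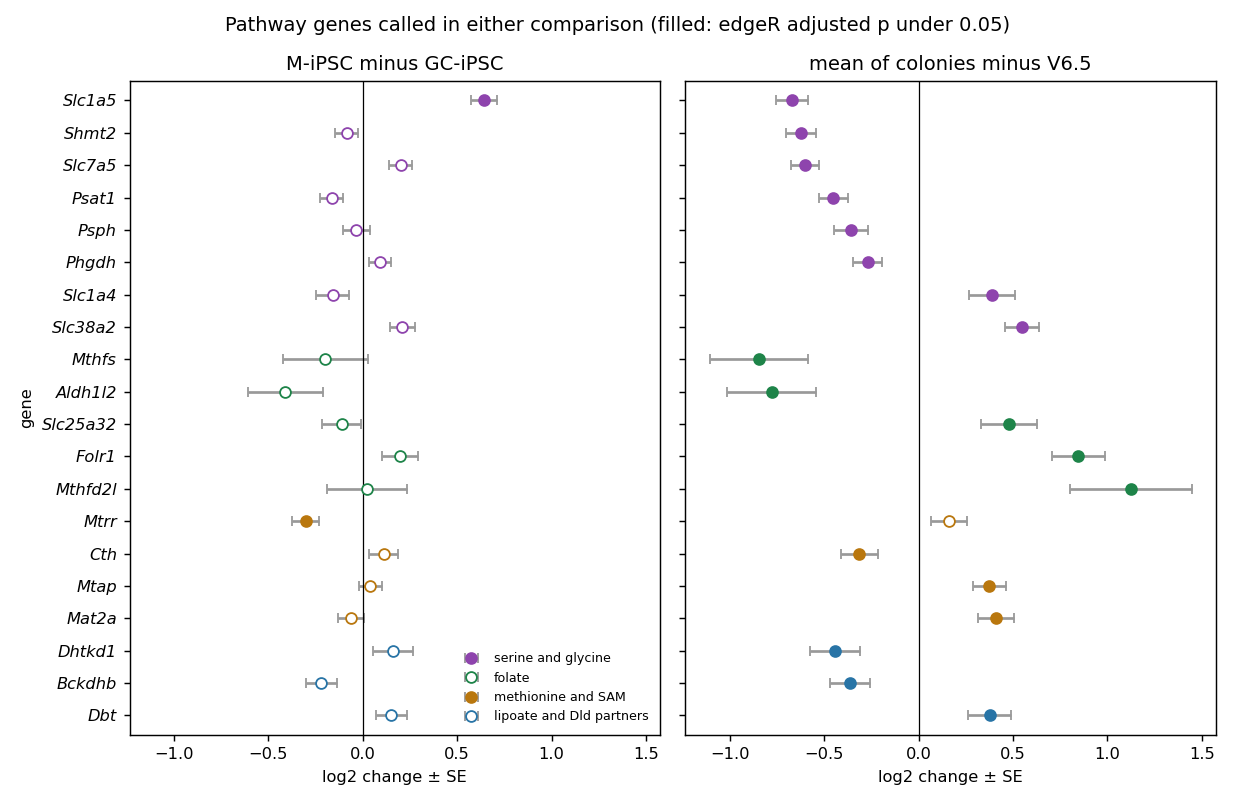
Fitted log2 change with its SE (x axis) for the 20 genes of the surrounding pathways called in either comparison (y axis, coloured by list), in M-iPSC minus GC-iPSC and in the colonies minus V6.5. Filled points passed edgeR's adjusted p of 0.05. On the left only Slc1a5 and Mtrr are filled, and on the right every gene but Mtrr.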

How the data were processed

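RNA-seq was made from 7 libraries, and the authors deposited 1 table of raw read counts per gene for all of them. Per the submitters' processing notes, STAR 2.7.10a, featureCounts 2.0.6 and DESeq2 (version not given) were used with mm10/GRCm38; strand, multi-mapping and pair settings are not given in the sources used here. The labels name both a non-stranded poly-A and a directional library, so reads of a gene and an antisense partner may not be told apart. Of counts between 1 and 49, 68.5% to 72.2% were even in each library, so the counts may overstate the number of fragments.

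Groups were taken from sample titles. Genes were tested with edgeR 4.0.16 (R 4.3.3, filterByExpr, TMM, quasi-likelihood test) and adjusted over all tested genes. M-iPSC against GC-iPSC used 6 libraries and the comparisons with V6.5 used 7. This was tested on simulated data with the same dispersion for every gene. The simulated data held no difference between cell lines, so they cannot test what the single V6.5 library adds. All 9 members passed the filter, as 9 of 10 rows. Alternatives were RLE size factors, DESeq2 1.42.0, limma-voom (limma 3.58.1), other filters, each colony left out, a replicate block and the fit on all 7 libraries. Spread and likeness used log2(CPM + 0.5). Exon lengths came from GENCODE release M21 (54809 of 54838 identifiers matched), with bases shared with another gene left out. Pathway genes named are those called between M-iPSC and GC-iPSC and the 4 per list with the largest called change against V6.5; exceptions are stated. Members and gene lists were chosen with earlier results of these data known. The comparison without M-iPSC colonies 2 and 3 against V6.5 was added after seeing the data.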

Additional observations from a re-analysis of the deposited data

How the results depend on the processing

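Amt and Gldc against V6.5 kept their direction and their call in every alternative. All of these used the same single V6.5 library, so they cannot show how far the calls depend on it. Between M-iPSC and GC-iPSC, 721 genes were called; the count was 1110 with DESeq2, 1318 with no filter on low counts, 373 without M-iPSC colonies 2 and 3, and 244 to 814 with 1 colony left out (270 without M-iPSC colony 3, 412 without GC-iPSC colony 1 and 244 without GC-iPSC colony 2). Of the 9 members 1 was called there; it was 2 with DESeq2, 0 without M-iPSC colonies 2 and 3, and 0 to 1 with 1 colony left out. In the colonies against V6.5, 4 members were called, 2 without M-iPSC colonies 2 and 3, and 2 to 4 with 1 colony left out. Counts over pathway lists moved by a few genes; in the colonies against V6.5 they ranged between 6 and 8 for serine and glycine (8 called), 1 and 6 for folate (5), 2 and 3 for methionine (3) and 0 and 3 for lipoate and Dld partners (3). Between the sources they ranged between 1 and 3 (1), 0 and 1 (0), 0 and 1 (1) and 0 and 1 (0) in the same order. The cause was not tested.

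The sign turned 22 times, only for members that were not called. For M-iPSC minus GC-iPSC without M-iPSC colonies 2 and 3, the log2 change was 0.0217 for Gcat, 0.207 for Gldc and 0.0398 for Shmt1. With 1 colony left out it ran between -0.1725 and 0.05 for Gldc and between -0.0781 and 0.1022 for Gcsh, which was -0.0028 with limma-voom. Gcsh in the colonies minus V6.5, M-iPSC minus V6.5 and GC-iPSC minus V6.5 was 0.0065, 0.0069 and 0.0061 with a mean of at least 1 CPM. With 1 colony left out Gcsh ran between -0.0558 and 0.0391, -0.0949 and 0.0905, and -0.0244 and 0.0028 in these comparisons. Without M-iPSC colonies 2 and 3 it was 0.0694 in the colonies minus V6.5 and 0.1535 in M-iPSC minus V6.5. With 1 colony left out, Shmt1 in M-iPSC minus V6.5 ran between -0.0263 and 0.0354, and Dld in GC-iPSC minus V6.5 between -0.0057 and 0.023.

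Same-numbered colonies of the 2 sources deviated together only weakly (correlations 0.0921, 0.0834 and 0.1477), so the numbers were not taken as a pairing, although every colony correlated best with its own number. With the replicate block, 963 genes and 1 member were called, Amt had an adjusted p of 0.0229, Gcsh changed by -0.0014 and 1 folate gene was called. Limits are the single V6.5 library, 3 colonies a source, unknown donors, and the low counts of Gcat.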
